A study of Mus musculus with 8 samples.

Results

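The miR-34 and miR-449 family was followed in the kidneys of diabetic db/db mice and of control mice. Its 7 members were taken by name, as the rows for mmu-miR-34a-5p, mmu-miR-34a-3p, mmu-miR-34b-5p, mmu-miR-34b-3p, mmu-miR-34c-5p, mmu-miR-34c-3p and mmu-miR-449a-5p (the mouse prefix mmu is left out from here on), out of 1881 mouse miRNAs on the array. Total RNA from 8 kidney samples was hybridised, 1 sample to 1 single-colour Agilent array, with 4 samples in each group and 100 ng of RNA labelled per array. All mice were males of 28 weeks on the C57BLKS/J Iar background. The strain label of the db/db group is +Leprdb/+Leprdb, for 2 copies of the db allele of the leptin receptor gene, and that of the controls is m+/m+. The control titles read dbm and the source label m/m, so whether controls carried a db allele is not settled by the labels. No label says that the samples of a group are different animals. The p-values below therefore rest on the spread among these 8 samples, which may be technical.

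The family is known as an arm of the p53 pathway. The p53 protein binds the promoters of the Mir34a gene and of the Mir34b and Mir34c pair and raises their transcription after DNA damage and other stress, and the mature miRNAs repress mRNAs of cell-cycle and survival proteins. miR-34a is the widely expressed member, and in the kidney it has been studied in tubular injury, senescence and fibrosis. miR-34b, miR-34c and the miR-449 miRNAs are best known from multiciliated epithelia, where they act together in the building of cilia. The miR-449 miRNAs are also known as targets of E2F1.

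What joins the 5p members is the seed, bases 2 to 8 of the mature miRNA, which pairs with target mRNAs. RefSeq (GRCm38.p6) held mature sequences for 6 of the 7 members, and they are shown 5′ to 3′ with the seed in capitals. The first set is the 5p arms.
miR-34a-5p: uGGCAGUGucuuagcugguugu
miR-34b-5p: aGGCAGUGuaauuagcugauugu
miR-449a-5p: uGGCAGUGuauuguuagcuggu
The second set is the 3p arms, shown because none of them was detected.
miR-34a-3p: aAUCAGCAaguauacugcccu
miR-34b-3p: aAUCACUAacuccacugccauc
miR-34c-3p: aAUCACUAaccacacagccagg
The 3 printed 5p arms had 1 seed, GGCAGUG. Of the 1608 miRNAs on the array with a RefSeq mature sequence, miR-449c-5p was the only other one with that seed. The 3p arms of miR-34b and miR-34c shared the seed AUCACUA, which differs from that of miR-34a-3p.

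Each member was read by 2 probes. The longer probe of miR-34a-5p and of miR-34b-5p is shown because the probe, not the whole miRNA, sets what the array can tell apart.
miR-34a-5p probe: acaaccagctaagacactgc
miR-34b-5p probe: acaatcagctaattacactgcc
The array design maps the miR-34a-5p probes to chr4:149442585-149442603 and the miR-34c-5p probes to chr9:50911155-50911173, both on mm9. It maps the miR-449a-5p probes to chr13:113827760-113827778 on mm9, and lists the miR-34b probes as unmapped. By RefSeq gene spans, Mir34b and Mir34c lie within those of Btg4 and Hoatz, Mir449a, Mir449b and Mir449c within that of Cdc20b, and Mir34a within no other gene. Without gaps, the target of the 20-base miR-34c-5p probe differed from mature miR-34b-5p at 2 bases. That of the 20-base miR-34a-5p probe differed from mature miR-34b-5p at 9 bases and from mature miR-449a-5p at 7 bases. With a gap allowed, the printed sequences of miR-34a-5p and miR-34b-5p match at more bases, so the count of 9 overstates how far they differ. How much miR-34b-5p binds to the miR-34c-5p probes was not tested. Nor was binding of miR-34a-5p to the probes of miR-34b-5p and miR-34c-5p. Linear signals, scaled as described below, were 627 to 1185 for miR-34a-5p, 25.1 to 39.2 for miR-34b-5p and 10.05 to 16.79 for miR-34c-5p. Whether the 3 signals are independent is not settled.

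The 8 arrays detected between 289 and 358 miRNAs each, and no miRNA spot was saturated. Log2 of the 75th percentile of miRNAs detected on all arrays, used to scale them, had a mean of 8.52 ± 0.11 in control and 8.65 ± 0.07 in db/db kidneys before scaling (n = 4 each, SD; p = 0.0857 in a 2-sided exact permutation test). All arrays lay on 1 slide, each group in a row of its own, and row cannot be told apart from genotype. A miRNA was tested if every array of 1 group or of both detected it, which 316 met. In db/db kidneys 77 of them were higher and 55 lower by limma at a Benjamini-Hochberg adjusted p under 0.05. This split moved with the scaling. It was 100 higher and 28 lower with no scaling, 139 and 28 with scaling to labelling spike-ins, and 68 and 77 with quantile normalization. The kidney tubule miRNAs miR-192-5p, miR-194-5p, miR-204-5p, miR-30a-5p, miR-10a-5p and miR-10b-5p were detected on all 8 arrays.

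Array signals of the 3 members that were detected, miR-34a-5p, miR-34b-5p and miR-34c-5p, were higher in db/db than in control kidneys. miR-34a-5p was 1.56-fold higher, miR-34c-5p 1.31-fold and miR-34b-5p 1.27-fold (n = 4 each). Under the normexp background correction, described below, the changes of miR-34b-5p and miR-34c-5p were 0.035 and -0.028 on the log2 scale. The signal of miR-34c-5p lay close to the array background, and the size of its change is not settled. The other 4 members were not detected on any array. Of the 7 members 3 were tested, and all 3 of those passed as higher. Of the 316 tested miRNAs, 24.4% passed as higher, 17.4% as lower and 41.8% in either direction; members that were not detected are in neither share. The 3 tested members were detected on all 8 arrays, so none entered the test through 1 group alone.

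miR-34a-5p, the p53-induced member expressed in most tissues, had log2 scaled signals of 9.29, 9.41, 9.46 and 9.44 in control replicates 1 to 4. In db/db replicates 1 to 4 it had 10.19, 10.21, 9.88 and 9.90. The groups did not overlap: the lowest db/db value lay 0.42 above the highest control value. Within the db/db group, replicates 1 and 2 were the higher ones and replicates 3 and 4 the lower ones. The mean moved from 9.40 ± 0.08 to 10.04 ± 0.18 (SD, n = 4 each). That was a rise of 0.64 ± 0.09 (SE) on the log2 scale (Benjamini-Hochberg adjusted p from limma = 0.000922). It was the 24th largest of the 77 increases that passed. The groups also did not overlap, with db/db higher, for 24.7% of the tested miRNAs, and did not overlap in either direction for 41.5%.

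miR-34b-5p, transcribed together with miR-34c, had log2 scaled signals of 4.65, 4.68, 4.71 and 4.82 in control replicates 1 to 4. The db/db values were 5.29, 5.00, 4.86 and 5.07. The groups lay close: db/db replicate 3 stood 0.040 above control replicate 4, and db/db replicate 1 was the highest. The mean moved from 4.72 ± 0.07 to 5.06 ± 0.18 (SD, n = 4 each), a rise of 0.34 ± 0.09 (SE) on the log2 scale (Benjamini-Hochberg adjusted p from limma = 0.0168).

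miR-34c-5p is the other product of that transcript. Across control replicates 1 to 4 its log2 scaled signals were 3.33, 3.59, 3.53 and 3.71. Across db/db replicates 1 to 4 they were 4.07, 4.00, 3.78 and 3.86. The groups did not overlap, by 0.067 between control replicate 4 and db/db replicate 3. The mean moved from 3.54 ± 0.16 to 3.93 ± 0.13 (SD, n = 4 each), a rise of 0.38 ± 0.10 (SE) on the log2 scale (Benjamini-Hochberg adjusted p from limma = 0.0132). Its signal lay close to the background of the array: on the linear scale it was 10.05 to 16.79, where negative-control spots averaged 4.55 to 7.64 with an SD of 3.20 to 4.98 per array. With the mean of those spots subtracted from each array, an alternative chosen after seeing the data, its change was 0.83, against 0.46 for miR-34b-5p and 0.65 for miR-34a-5p. The size of the change of miR-34c-5p is therefore not settled by these arrays. Without db/db replicate 2 the change was 0.30 and no longer passed (Benjamini-Hochberg adjusted p from limma = 0.0568). In whole tissue, more cells that hold a miRNA and more of it per cell cannot be told apart.

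**Figure D1:**
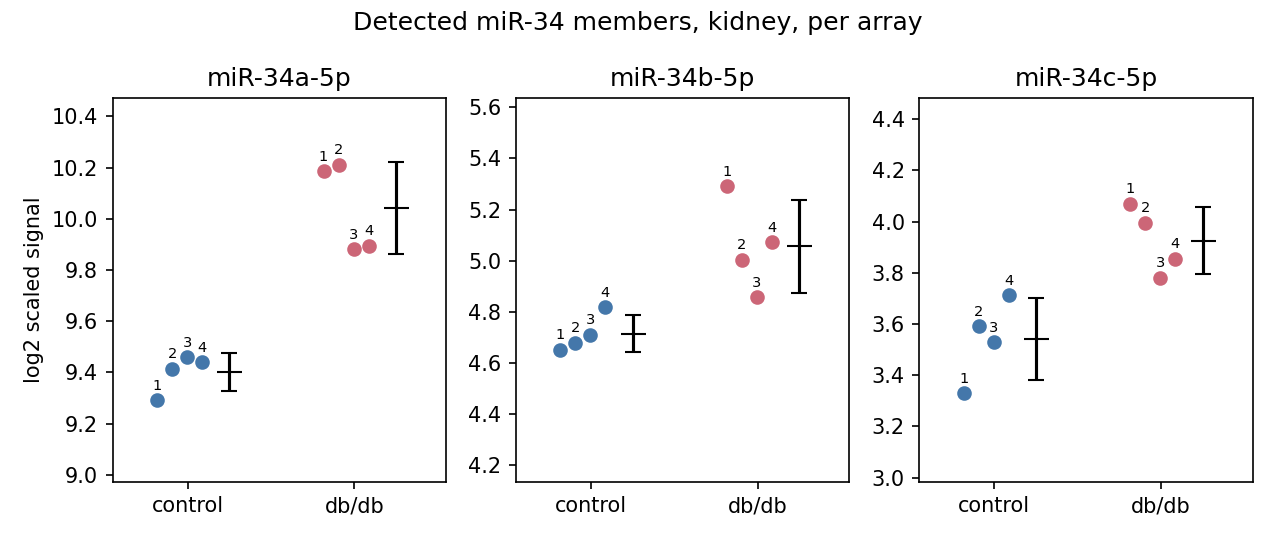
Log2 scaled signal (vertical axis, a span of equal length in each panel) of miR-34a-5p, miR-34b-5p and miR-34c-5p in control and db/db kidneys. Points are single arrays labelled with their replicate number, and bars show mean and SD (n = 4). The groups are apart by 0.42 for miR-34a-5p and by 0.040 and 0.067 for miR-34b-5p and miR-34c-5p.

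The 2 probes of each detected member were also compared on their own, each the mean of 14 to 15 spots per array that were not outliers. For miR-34a-5p the 19-base probe rose by 0.63 ± 0.09 (SE) and the 20-base probe by 0.65 ± 0.09 (SE) on the log2 scale. The 19-base probe of miR-34c-5p was not well above background in any spot of any array, and its scaled signals of 6.27 to 9.41 lay within 2 SD of the mean negative-control spot on all 8 arrays, so no change is given for it. The 20-base probe, with 13.8 to 25.2, had a change of 0.42 ± 0.12 (SE; p from limma, Benjamini-Hochberg adjusted over 696 probes, = 0.0311). Of its spots, 20, 0, 6.67 and 86.7% were well above background in control replicates 1 to 4. In db/db replicates 1 to 4 the share was 100, 6.67, 53.3 and 73.3%, so this probe too was often near background. For miR-34b-5p the 22-base probe rose by 0.34 ± 0.09 (SE). The 21-base probe had a change of 0.34 ± 0.12 (SE) that missed the threshold (Benjamini-Hochberg adjusted p from limma = 0.0603), and its groups overlapped. From 7.14 to 80% of its spots per control array, and 6.67 to 100% per db/db array, were well above background. The standard error over the spots of the longer probe was at most 1.83% of their mean for miR-34a-5p, 4.75% for miR-34b-5p and 11.3% for miR-34c-5p, so spots varied least for miR-34a-5p.

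Whether the members changed by unequal amounts was tested on the log2 ratio of 2 members within each array, over 3 pairs. The test was a 2-sided exact permutation of the group labels, with 70 assignments, for which 0.0286 is the smallest p, and p-values were adjusted over the 3 pairs by the Benjamini-Hochberg method. The ratio of miR-34a-5p to miR-34b-5p ranged from 4.62 to 4.75 in control and from 4.82 to 5.21 in db/db kidneys. The rise of miR-34a-5p was larger by 0.30, with a 95% interval of 0.075 to 0.585 from the same exact test (adjusted p = 0.0429). The ratio of miR-34a-5p to miR-34c-5p ranged from 5.73 to 5.96 and from 6.04 to 6.22. Here the rise of miR-34a-5p was larger by 0.26, with a 95% interval of 0.08 to 0.485 (exact test, adjusted p = 0.0429). Both calls were lost with any 1 control array or db/db replicate 2 left out, with differences of 0.23 to 0.36 and 0.21 to 0.29 over all arrays left out in turn (exact test, adjusted p up to 0.0857). With an array left out the exact test has fewer assignments, so its p-values move in larger steps. With the mean negative-control signal subtracted, the differences were 0.19 and -0.18 and neither passed (exact test, adjusted p = 0.3 and 0.371), the second having turned in sign. Unequal changes of the members were thus not shown beyond the choice of background. For miR-34b-5p against miR-34c-5p the changes differed by -0.044, with a 95% interval of -0.315 to 0.135 (exact test, adjusted p = 0.657). A difference between that pair of neighbours was not shown, nor was it shown that they changed alike.

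The 3p arms and miR-449a-5p gave no measurable level. miR-34a-3p, miR-34b-3p and miR-34c-3p were not detected on any of the 8 arrays. Their scaled signals, on the linear scale, ran from -3.35 to 0.589, from 0.0708 to 2.80 and from -2.90 to -1.49. The floor set for tested miRNAs was 2.80, and the highest of these values, of miR-34b-3p in db/db replicate 1, lay at that floor. miR-449a-5p, which shares the seed of miR-34a-5p, ran from -1.47 to 1.04. The other miRNAs of the miR-449 locus on the array, miR-449a-3p, miR-449b, miR-449c-3p and miR-449c-5p, were not detected either, with scaled signals from -5.05 to 0.913. Of all 1881 miRNAs, 79.3% were detected on no array. No fold is given for any of these, since both groups are below the limit of detection.

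**Figure D2:**
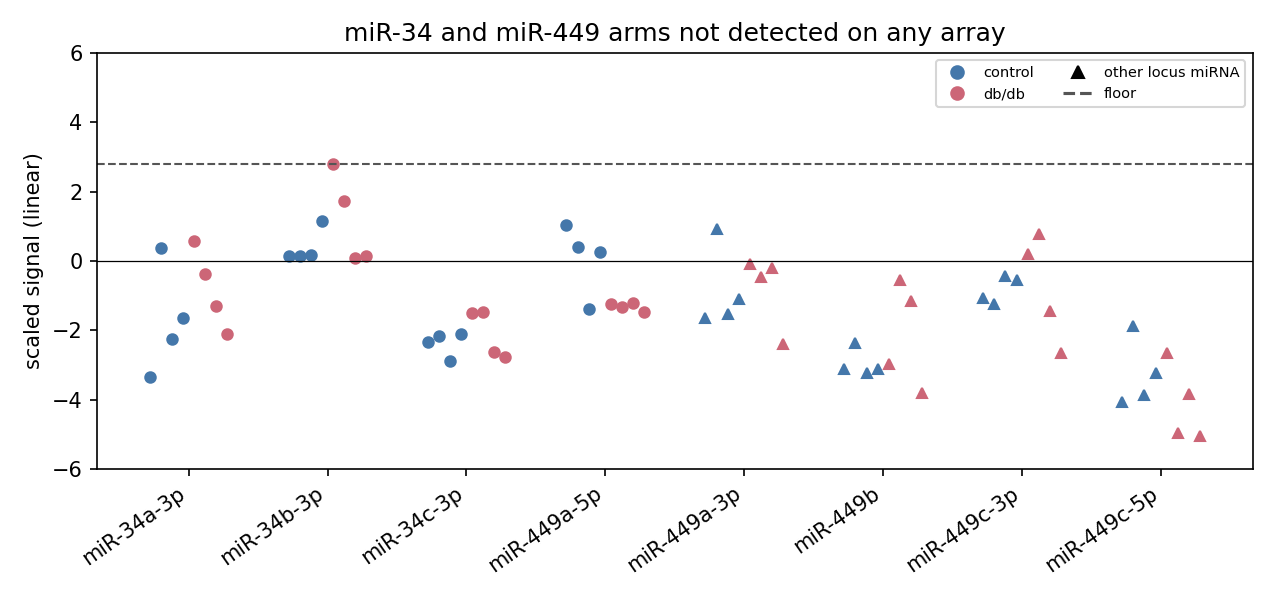
Scaled signal on the linear scale (vertical axis) of the 4 members (circles) and the 4 other miRNAs of the miR-449 locus (triangles) that were detected on no array, with control arrays in blue and db/db arrays in red. The dashed line is the floor of 2.80, and a single point, miR-34b-3p in db/db replicate 1, reaches it.

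Other miRNAs tied to p53 were counted beside the family. Of a list of 12 that p53 induces or helps to process, 11 were on the array under the name used and 10 were tested. In db/db kidneys 2 were higher, 1 was lower and 7 did not pass, with a median change of -0.027 against -0.024 over all 316 tested miRNAs, of which 24.4% were higher and 17.4% lower. The list median turned to 0.10 when arrays were left unscaled and to 0.15 when scaled to spike-ins, where that of all tested miRNAs was 0.10 and 0.16. The higher ones were miR-200c-3p and miR-141-3p, neighbours of 1 cluster that restrain epithelial-mesenchymal transition. On the log2 scale the rise was 0.42 ± 0.08 (SE) for miR-200c-3p and 0.36 ± 0.07 (SE) for miR-141-3p (Benjamini-Hochberg adjusted p from limma = 0.00293 and 0.00519). miR-16-5p, whose processing p53 aids and which slows the cell cycle, fell by 0.19 ± 0.05 (SE), with a Benjamini-Hochberg adjusted p from limma of 0.0236. It did not pass on unscaled or spike-in scaled arrays. On spike-in scaled arrays miR-192-5p and miR-194-5p passed as higher, which made 4 of the list higher and 0 lower. Leaving out control replicate 2, or either of db/db replicates 1 and 3, also ended its call and left 2 of the list called. Without db/db replicate 2, miR-22-3p and miR-107-3p passed too, as lower. With all arrays these had changes of -0.14 ± 0.07 and -0.13 ± 0.06 (SE). miR-192-5p, a tubule miRNA that p53 induces, had 0.078 ± 0.047 (SE). None of these 3 passed in the main setting.

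**Figure D3:**
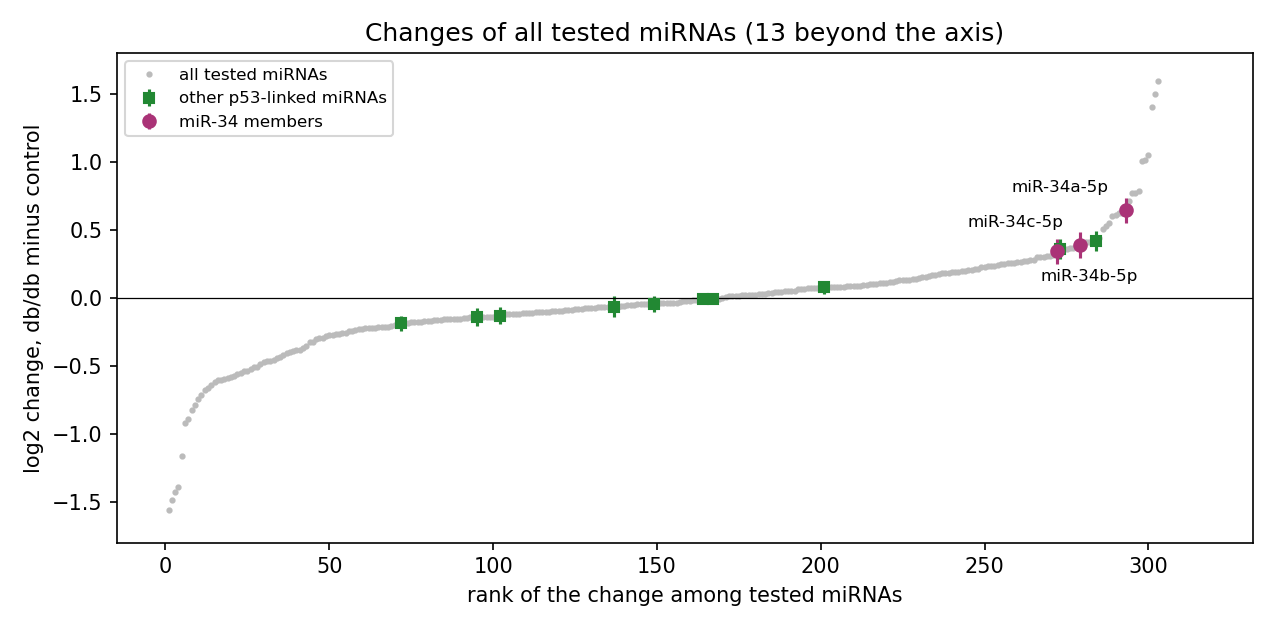
Log2 change, db/db minus control (vertical axis), of the 316 tested miRNAs in order of their change (horizontal axis), with the 3 detected miR-34 members in purple, 10 other p53-linked miRNAs in green, and SE bars on both. The members lie at 0.34 to 0.64, while the p53-linked miRNAs run from -0.19 to 0.42; 13 miRNAs lie beyond the axis limit of 1.8.

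The miRNAs whose pattern over the 8 arrays lay nearest to each member were found by the root mean square difference of log2 signals, each centred on its own mean. This is a description over 8 arrays, and a difference between the groups is part of it. Nearest to miR-34a-5p were miR-129-1-3p at 0.13, miR-335-5p at 0.15 and miR-34c-5p at 0.15. Nearest to miR-34c-5p were miR-141-3p at 0.051, miR-200c-3p at 0.077 and miR-30e-3p at 0.087, with miR-34b-5p next at 0.095. Nearest to miR-34b-5p were miR-30e-3p at 0.084, miR-34c-5p at 0.095 and miR-141-3p at 0.096. miR-34a-5p stood 77th in the order of likeness to miR-34b-5p and 35th in that to miR-34c-5p.

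Some markers of other cell types moved between the same groups. Over all 316 tested miRNAs, 24.4% were higher and 17.4% lower in db/db kidneys, a split that moved with the scaling. Of 6 leukocyte miRNAs, 5 were lower in db/db kidneys, and the log2 of their summed signal ran from 9.23 to 9.60 in control and from 7.99 to 8.51 in db/db kidneys. The hepatocyte miRNA miR-122-5p was not detected in controls, where it lay at the floor of 1.48, and had log2 signals of 5.65 to 7.06 in db/db kidneys. Of 6 tubule miRNAs, 4 were higher, and their log2 sum ran from 13.68 to 13.77 in control and from 13.86 to 13.91 in db/db kidneys. The endothelial miRNAs miR-126a-3p and miR-126a-5p had changes of -0.11 ± 0.04 and -0.15 ± 0.05 (SE) and the smooth muscle miRNAs miR-143-3p and miR-145a-5p -0.044 ± 0.060 and -0.065 ± 0.075 (SE). Of the erythroid pair, miR-451a had 0.27 ± 0.61 and miR-144-3p 0.53 ± 0.66 (SE), and none of these 6 passed. Of the 4 miRNAs taken as markers of multiciliated epithelium, miR-34b-5p and miR-34c-5p were higher in db/db kidneys, and miR-449a-5p and miR-449c-5p were detected in neither group. The detected ones are members whose changes are given above, so this list adds no separate information on that cell type. The part of any of these cell types in the miR-34 values was not tested.

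The rise of miR-34a-5p kept its direction in all 27 other settings tried, with changes from 0.53 to 0.82, and passed in 25 of them. It did not pass with scaling to the 75th percentile of all miRNAs (Benjamini-Hochberg adjusted p from limma = 0.0691). Nor did it pass in the exact permutation test adjusted over all tested miRNAs, in which no tested miRNA could pass. Other floors, filters, limma options and the replicate block could alter only the p-values of the members, not their changes. The 8 fits with an array left out share most of their arrays. The settings are thus not independent checks. miR-34b-5p passed in 23 of 27 and miR-34c-5p in 22 of 27. The 22 include the shorter probe of miR-34c-5p taken alone, which was not well above background in any spot. That pass is therefore not counted as support for a rise. The normexp background correction adds 50 to each spot, which exceeds the scaled signal of miR-34b-5p and of miR-34c-5p. Under it the change was 0.035 for miR-34b-5p and turned to -0.028 for miR-34c-5p, while miR-34a-5p had 0.60. The median over all tested miRNAs moved from -0.024 to 0.10 without scaling and to 0.16 under spike-in scaling. These scalings add a constant to each array, so the changes of the 3 members relative to that median, 0.67, 0.36 and 0.41, are the same under them by construction. Relative to the median they were 0.61, 0.33 and 0.34 under quantile normalization and 0.67, 0.10 and 0.039 under normexp.

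**Figure D4:**
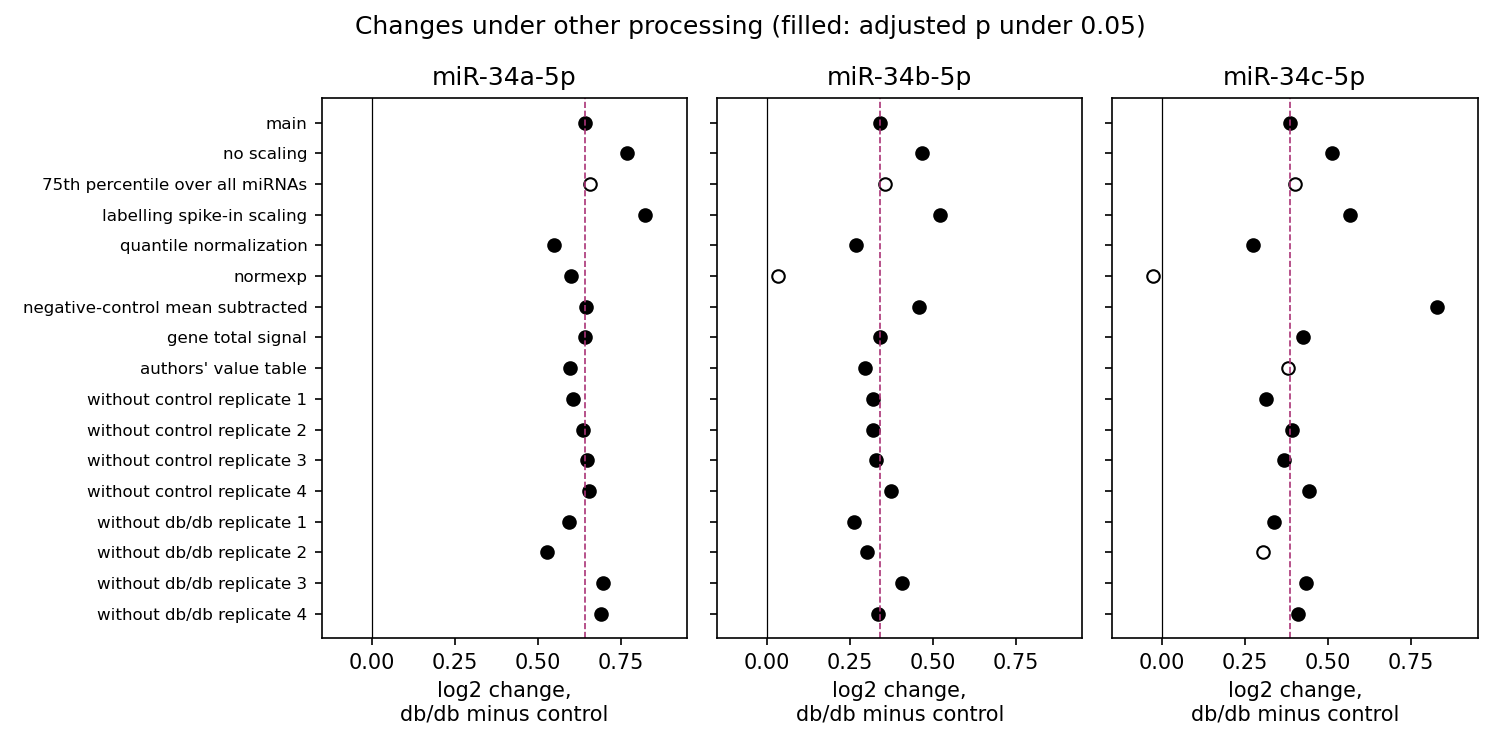
Log2 change, db/db minus control (horizontal axis), of the 3 detected members under the main setting and 16 others, each array left out in turn included (vertical axis); filled points passed at an adjusted p under 0.05 in limma, and the dashed line marks the main value. miR-34a-5p stays between 0.53 and 0.82, and normexp moves miR-34b-5p and miR-34c-5p to 0.035 and -0.028. Subtracting the negative-control mean moves miR-34c-5p to 0.83.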

How the data were processed

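Spot intensity, as deposited, was extracted, per the file headers, by version 12.0.3.1 of Agilent Feature Extraction, with spatial detrending on and background correction off. Flags of outlier spots and of detection come from the same files. The authors also deposited a table with a linear ratio per miRNA and array; it matched the gene total signal up to an offset, its scaling is not stated in the sources at hand, and it served as an alternative. Its column medians were 1.11, 1.10, 1.10 and 0.980 in control and 0.857, 1.01, 0.994 and 0.947 in db/db replicates 1 to 4.

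Processed signals of spots without an outlier flag were averaged per probe, then per miRNA. Arrays were scaled to an equal 75th percentile, taken over 269 miRNAs that every array detected. Before log2, lower values were raised to 2.80, which is the lowest positive scaled signal among detected miRNAs on each array, as a median of the 8 arrays. limma 3.58.1 (lmFit, eBayes) in R 4.3.3 was fitted to the 316 miRNAs and adjusted over them by Benjamini-Hochberg, 2-sided, without a replicate block. The steps were tested on simulated data. The number of arrays limits the precision.

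Members and lists were chosen with earlier results of these data known. Named were all members, other miRNAs of their loci, of the p53-linked list those that passed and the 3 next by adjusted p, the 3 miRNAs most like each detected member, and cell type markers. RefSeq names matched 1608 of 1881 miRNAs. Alternatives were other scalings, signals, averages, floors, filters, tests, single probes, each array left out and, added after seeing the data, subtraction of the negative-control mean.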

Additional observations from a re-analysis of the deposited data

Results flagged for a closer look

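Of 62 sets of 4 arrays checked for a single array standing apart by Dixon's test, 2 were past its 95% critical value, where about 1 in 20 would be by chance. Both were p53-linked miRNAs and both concerned db/db replicate 2. For miR-107-3p that array had a log2 signal of 11.28 against 11.17 to 11.18 in the other db/db arrays, a gap of 0.849 of the range. For miR-15a-5p it had 11.31 against 11.23 to 11.24, a gap of 0.903 of the range. Neither miRNA passed the test between the groups with all arrays.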

How the results depend on the processing

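When arrays were scaled to the 75th percentile of all 1881 miRNAs, the count of miRNAs past the threshold fell from 132 to 34, and the changes of miR-34a-5p, miR-34b-5p and miR-34c-5p, 0.66, 0.36 and 0.40, did not pass; neither did any p53-linked miRNA, 0 of 10, by limma with adjustment or at an unadjusted p under 0.05. With the exact permutation test, adjusted over all tested miRNAs, the changes of 0.64, 0.34 and 0.38 gave an adjusted p of 0.0689, on its coarse scale of 70 assignments. Each had the smallest p that this test can give, 0.0286, so no tested miRNA could pass, and the setting cannot decide. With normexp miR-34b-5p had 0.035 and miR-34c-5p -0.028, and the difference between their changes turned to 0.063. In the authors' value table miR-34c-5p had 0.38 with an adjusted p of 0.0509 in limma. The 21-base probe of miR-34b-5p, taken alone from the scanner files, had 0.34 and did not pass. With the mean of the negative-control spots subtracted, an alternative chosen after seeing the data, the difference between the changes of miR-34a-5p and miR-34b-5p was 0.19 and that between miR-34a-5p and miR-34c-5p turned to -0.18. With medians over spots and probes the rise of miR-34a-5p exceeded that of miR-34b-5p by 0.29 and that of miR-34c-5p by 0.17, neither passing.

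With each array left out in turn, the changes ranged from 0.53 to 0.70 for miR-34a-5p, 0.26 to 0.41 for miR-34b-5p and 0.30 to 0.44 for miR-34c-5p. The differences between changes ranged from 0.23 to 0.36 for miR-34a-5p against miR-34b-5p, 0.21 to 0.29 against miR-34c-5p, and -0.074 to 0.0056 for miR-34b-5p against miR-34c-5p. The counts ranged from 114 to 153 for all miRNAs and from 2 to 5 for the p53-linked ones. The median of the p53-linked list turned to 0.10 on unscaled arrays and 0.15 under spike-in scaling. The cause was not tested beyond what each setting changes by construction.

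The replicate numbers did not pair the samples: deviations of same-numbered samples had correlations of -0.43, 0.41, -0.046 and -0.075 across miRNAs, and 2 of 8 samples correlated best with their own number. With the replicate block 81 miRNAs were higher and 63 lower, the 3 members kept their calls (Benjamini-Hochberg adjusted p from limma = 0.0110, 0.0391 and 0.0473), and 5 p53-linked miRNAs passed. The differences of 0.30 and 0.26 between members could not pass under the block with 4 pairs. miR-34c-5p exceeded the mean negative-control spot by over 2 SD on 4 of 8 arrays, which limits what can be said of its change. These were control replicate 4 and db/db replicates 1, 3 and 4, so most control arrays lay within 2 SD.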
